A study of Mus musculus with 50 samples.

Results

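RNA from mouse embryonic stem (ES) cells depleted of HP1γ was compared with RNA from control cells in the naive state. The comparison took 6 of the 50 samples of the series: 2 libraries of cells carrying a short hairpin against HP1γ (labelled shHP1r) and 4 libraries of cells carrying the mock control hairpin (shGFP replicates 1, 2, 5 and 6). All were of the V6.5 line and were grown in 2i, a defined medium with inhibitors of the kinases MEK and GSK3 that keeps the cells naive. Genes were kept where the deposited FPKM (sequenced fragments relative to transcript length and to the size of the library) reached 1 in at least 2 of these 6 libraries, which left 14127 of the 17043 genes listed. At the edge of that rule, Crtac1 was kept with a second-highest value of 1.0 FPKM and Slc13a4 was left out at 0.999. The series is about the developmental genes under the control of β-catenin and of the proteins found with it. Other libraries were used beside this comparison: shGFP replicates 3 and 4 as a check, 2 libraries of V6.5 cells in 2i with a hairpin against β-catenin (shBcat), and V6.5 cells without a named hairpin in 2i and after 48 h as epiblast-like cells (epiLC; n = 2 each). The labels do not give the number of hairpins or clones behind shHP1r, or say whether replicates were grown separately, so the p-values reflect only how much these libraries vary, and that variation may be technical.

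HP1γ, encoded by Cbx3, is one of the HP1 proteins, which bind histone H3 methylated at lysine 9 and take part in heterochromatin and gene silencing. HP1γ is also found in transcribed genes and in PRC1.6, a Polycomb complex that contains E2F6 and keeps germ cell genes silent in ES cells. Cultures of mouse ES cells hold a small fraction of cells that transiently express genes of the 2-cell embryo, among them the Zscan4 family, and several chromatin regulators are known to hold those genes down.

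The depth of the libraries is unknown, because FPKM values without gene lengths do not give read counts. Between 13380 and 13591 genes reached 1 FPKM in the 4 shGFP libraries, against 14151 and 13914 in shHP1r replicates 1 and 2. Neighbouring shGFP replicates (1 with 2, 3 with 4, 5 with 6) had a median absolute difference of 0.0503 to 0.0653 on the log2(FPKM + 1) scale, whereas replicates 1 and 2 differed from 5 and 6 by 0.158 to 0.166, and the shHP1r libraries differed from each other by 0.192. The neighbouring replicates were thus closer to each other than to the other controls, and whether they share a culture was not tested. shGFP replicates 3 and 4 stood apart, at 0.327 to 0.375 from the other controls. Mitochondrially encoded transcripts took 20.4% and 19.3% of the summed FPKM in those 2 libraries, 6.23% to 8.92% in the other 4 controls, and 10.1% and 9.75% in shHP1r.

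Cbx3, the target of the hairpin, was reduced to 0.106 of its control level. Its values were 61.6, 58.6, 69.8 and 71.2 FPKM in shGFP replicates 1, 2, 5 and 6 (65.3 ± 6.15, SD, n = 4) and 6.60 and 7.25 FPKM in shHP1r. Both knockdown libraries lay far below every control, shGFP replicates 3 and 4 included (56.7 and 63.2 FPKM). The fitted change was -3.06 on the log2(FPKM + 1) scale, the scale of all log2 changes given here (SE 0.11, adjusted p = 0.00016, limma with Benjamini-Hochberg adjustment over all genes tested). Cbx3 lies at chr6:51470154-51483704 (GRCm38.p6, RefSeq). Gm10068, which RefSeq names Cbx3-ps7, a pseudogene of Cbx3, was lower too, and whether reads of the 2 genes were divided between them was not tested. It was listed at 27.9 to 33.9 FPKM in the 4 shGFP libraries and at 1.84 and 2.59 in shHP1r (log2 -3.3, SE 0.12, adjusted p = 0.00016; named after its values were seen).

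The paralogs did not pass the test. Cbx1, which encodes HP1β, was at 46.1, 46.0, 46.8 and 47.4 FPKM in shGFP and at 58.0 and 39.8 in shHP1r, so that the 2 knockdown libraries fell on either side of the controls (log2 0.04, SE 0.14, adjusted p = 0.854). Without shHP1r replicate 2 its adjusted p was 0.0412. Cbx5, which encodes HP1α, was at 48.3, 46.9, 51.0 and 52.5 FPKM in shGFP and at 43.8 and 38.7 in shHP1r (log2 -0.26, SE 0.09, adjusted p = 0.124). Of 38 genes tested from a list of HP1 proteins and of the machinery that writes, reads and removes H3K9 methylation, 2 rose, 2 fell and 34 did not pass, with a median of -0.08 against -0.05 over all genes. Across all genes tested, 4.56% rose and 1.74% fell. The genes that rose were Zfp809, a KRAB zinc finger gene that silences retroviruses (14.6 to 18.6 FPKM in shGFP, 25.1 and 27.2 in shHP1r, log2 0.67), and Pphln1, a subunit of the HUSH silencing complex (7.09 to 8 against 11 and 9.84 FPKM, log2 0.44). Beside Cbx3, the gene that fell was Kdm3b, an H3K9 demethylase (34.2 to 35.1 against 20.2 and 26.5 FPKM, log2 -0.56). Without shHP1r replicate 1, shGFP replicate 5 or shGFP replicate 6, none of these last 3 passed, with adjusted p values of up to 0.0754 for Zfp809, 0.130 for Pphln1 and 0.103 for Kdm3b. Pphln1 and Kdm3b were also lost without shGFP replicate 1 or 2. Without shHP1r replicate 2 the list gained calls in both directions, as did all genes tested.

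Among the called genes in the fit of 6 libraries, more rose than fell, and the rises were larger. At an unadjusted p under 0.05 in that limma fit, 1759 genes were higher and 2345 lower. The test called 890 genes (6.3% of those tested), of which 644 (4.56%) were higher and 246 (1.74%) lower in shHP1r. Among the rises, 339 were at least 2-fold, against 13 of the falls, and the median change was 1.05 for the rises and -0.55 for the falls. The rises were mostly of genes low in control cells, with a median control level of 1.97 FPKM, where all genes tested had 7.39 and the falls 13.7. Only 89 of the 644 rises started from 10 FPKM or more. For 164 of the 644 rises, and 435 of all 14127 genes tested, fewer than 2 controls reached 1 FPKM, so that these genes passed the filter only through shHP1r. Predicted genes (Gm, RIKEN and clone names) made up 51.7% of the rises, 13.8% of the falls and 20.7% of the genes tested. In 501 of the 644 rises and 187 of the 246 falls, shHP1r replicate 1 was farther from the controls than replicate 2.

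**Figure D1:**
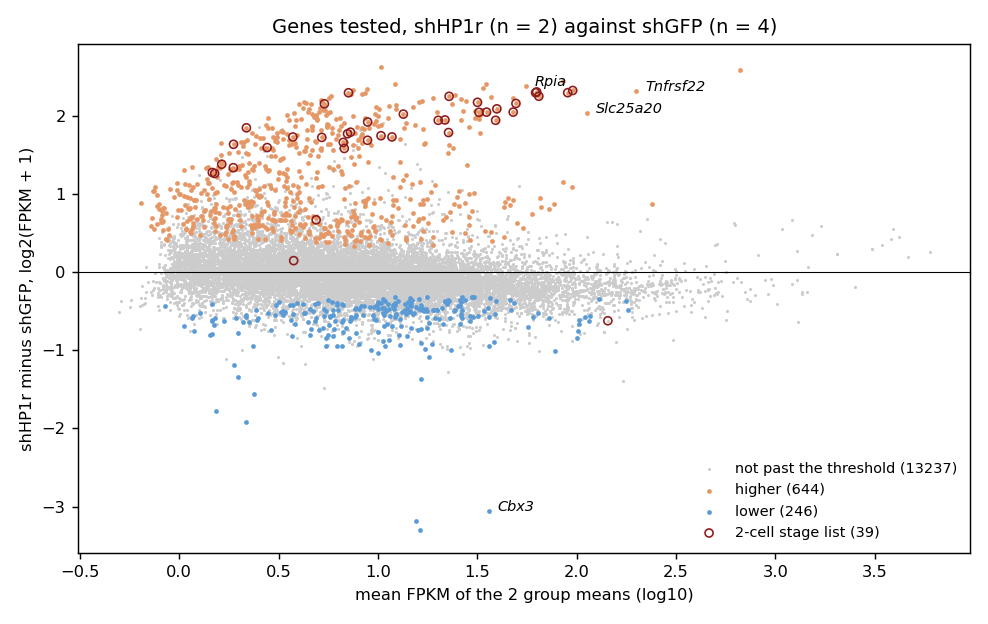
Each point is 1 of 14127 genes; the x axis gives the mean FPKM of both group means (log10) and the y axis the change in shHP1r on log2(FPKM + 1), with called genes coloured and the 39 members of the 2-cell stage list circled. The 644 rises reach past 2 at low and high levels, 36 circled genes are among them, and Cbx3 lies at -3.06.

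A larger share of the rises than of the falls also lay outside shGFP replicates 3 and 4. All 890 called genes separated both knockdown libraries from the 4 controls, as did 16.5% (higher) and 24.7% (lower) of all genes tested. Against all 6 shGFP libraries, 605 of the 644 rises and 130 of the 246 falls still separated, where the shares of all genes tested were 14.1% and 9.97%. With shGFP replicates 3 and 4 in the fit, 487 of the rises and 38 of the falls remained called, where 3.63% of all genes tested were called higher and 0.296% lower. Against shGFP replicates 1 and 2 alone 199 of the rises and 13 of the falls remained called (1.44% and 0.093% of all genes), and against replicates 5 and 6 alone 515 and 157 (6.39% and 8.57%). The number of calls also depended on single libraries. Without shHP1r replicate 1 there were 284 rises and 79 falls, and without shHP1r replicate 2 there were 1373 and 1496, the remaining knockdown library being assumed to vary like the controls. Leaving out shGFP replicate 1, 2, 5 or 6 gave 444, 449, 384 and 404 rises and 90, 64, 34 and 43 falls. When neighbouring replicates were averaged and counted as 1 library each, which left 1 knockdown value against 3 control values, limma called 0 genes, and Cbx3 had an adjusted p of 0.103. Before adjustment 758 genes had a p under 0.05 in that fit, against 4104 in the fit of 6 libraries.

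Outside the 2-cell stage list and the predicted genes, the largest rises included Rpia, Tnfrsf22, Dcdc2c and Slc25a20. Rpia encodes ribose-5-phosphate isomerase, an enzyme of the pentose phosphate pathway (chr6:70765720-70792175). Its values were 17.7, 16.7, 17.2 and 16.5 FPKM in shGFP replicates 1, 2, 5 and 6 and 109 and 78.4 FPKM in shHP1r. The means differed by 5.50-fold (log2 2.37, SE 0.13, adjusted p = 0.000243). Tnfrsf22, a decoy receptor for the death ligand TRAIL (chr7:143634808-143649675), had 61.9, 61.4, 72.0 and 65.0 FPKM in shGFP and 385 and 281 in shHP1r (log2 2.32, SE 0.14, adjusted p = 0.00031). Slc25a20, the carrier that brings acylcarnitines into mitochondria, had 38.9, 40.2, 49.3 and 46.0 FPKM in shGFP and 204 and 160 in shHP1r (log2 2.03, SE 0.14, adjusted p = 0.00048). In each of the 3 genes the lower knockdown library exceeded the highest control, and the order held with shGFP replicates 3 and 4, which were at 16.2 and 14.8 FPKM for Rpia, 39.4 and 39.0 for Tnfrsf22 and 32.2 and 32.7 for Slc25a20.

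Other members of this group started lower. Dcdc2c, a gene with doublecortin domains, went from 4.56, 4.57, 6.13 and 6.16 FPKM to 32.8 and 23.5 (log2 2.19), and Chit1, which encodes a chitinase, from 5.87, 6.28, 4.77 and 4.15 FPKM to 23.5 and 21.2 (log2 1.91). BC080695 rose from 2.58, 2.86, 4.45 and 3.92 to 19 and 14.3 FPKM (log2 2.00), with 1.72 and 1.57 in shGFP replicates 3 and 4. The clone-named gene model RP23-287A8.1 (Gm43601), counted here as a predicted gene and named after its values were seen, had 192, 181, 194 and 175 FPKM in shGFP and 1330 and 941 in shHP1r (log2 2.59, SE 0.15, adjusted p = 0.000243). All of these genes remained called when any 1 of the 6 libraries was left out. Of 14 TNF receptor family genes tested Tnfrsf22 alone passed (7.14% higher, against 4.56% of all genes). Without shHP1r replicate 2 more of them rose, as did more of all genes. Of 27 genes of the pentose phosphate pathway and nucleotide synthesis Rpia alone rose (3.70%) and 2 fell (7.41%, against 1.74% of all genes). Adsl, an enzyme of purine synthesis, was among the falls (13.8 to 16.0 FPKM in shGFP, 9.38 and 10.4 in shHP1r, log2 -0.54). Adsl was lost without shHP1r replicate 1, shGFP replicate 5 or shGFP replicate 6. Without shHP1r replicate 2 more genes of that list fell, as did more of all genes.

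**Figure D2:**
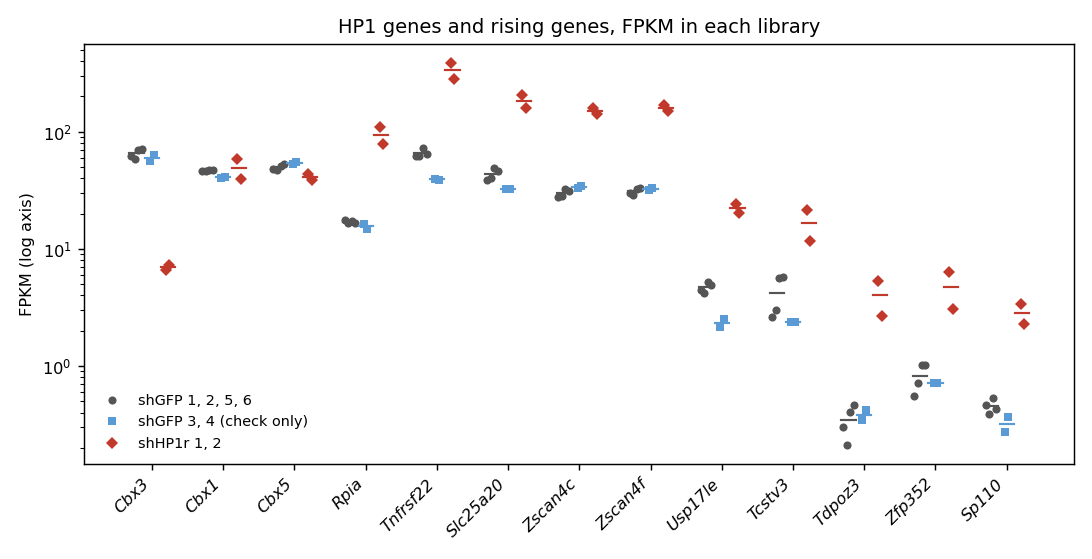
FPKM (log axis) of HP1 genes and of rising genes in each library, with a bar at each group mean; shGFP replicates 1, 2, 5 and 6 in grey, shGFP replicates 3 and 4 in blue and shHP1r in red. Cbx3 is lower in both knockdown libraries. Cbx1 lies on either side of the controls, and Cbx5 lies below all 6 without passing the test. Each rising gene lies above all 6 controls.

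The list of 2-cell stage genes moved most. Of 39 members tested (40 were listed in the table), 36 rose and 0 fell, with a median of 1.85, and all 36 were above all 6 shGFP libraries. The other members tested, Calcoco2, Zfp750 and Ddit4l, did not pass. Of the 36, 6 passed the filter only through the knockdown libraries, Tdpoz3, Tdpoz4 and Sp110 among them. Earlier results on these samples were known when the list was written, so that its count is a description and not independent evidence. The summed FPKM of the list was 472, 458, 495 and 480 in the 4 shGFP libraries and 1669 and 1406 in shHP1r, or 0.133% to 0.139% against 0.505% and 0.416% of all FPKM. In bulk RNA, more cells that express these genes and more RNA per expressing cell cannot be told apart. Without shHP1r replicate 1, 25 of the 33 members then tested rose, and without shHP1r replicate 2, 31 of 33 rose and 1 fell. Without any single control, 33 to 35 of 39 rose.

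All 5 Zscan4 genes tested rose, by closely similar amounts. The family encodes zinc finger proteins with a SCAN domain that mark the 2-cell-like state of ES cells and act on telomeres. RefSeq classes Zscan4e as a pseudogene. Zscan4c was at 27.7, 28.2, 32.6 and 31.0 FPKM in shGFP replicates 1, 2, 5 and 6 and at 160 and 141 in shHP1r (log2 2.30, SE 0.10, adjusted p = 0.000186). Zscan4f was at 30.1, 29.0, 32.5 and 33.0 FPKM in shGFP and at 170 and 150 in shHP1r (log2 2.32, SE 0.10, adjusted p = 0.00016). For Zscan4d the values were 18.3 to 22.7 FPKM against 116 and 94.8 (log2 2.31, SE 0.13). Zscan4b and Zscan4e changed by 2.29 and 2.25. Ratios of the group means ran from 4.93 to 5.14 across the family, and no control library, shGFP replicates 3 and 4 included, exceeded 34.1 FPKM for any of these genes. The copies share much of their sequence, so reads may be divided among them, and they are not independent observations.

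The starts of 3 Zscan4 genes are shown with that of another rising 2-cell gene and that of Rpia, to show what the members of the family share and Rpia does not. Each sequence is the 250 bases before the annotated start (RefSeq, GRCm38.p6), written along the gene's strand, with matches to GATTNNATC on either strand in capitals. These letters were taken from the core of the site known for Dux, a homeodomain factor that switches on genes of the 2-cell embryo.
Zscan4c, chr7:11005495-11005744, plus strand: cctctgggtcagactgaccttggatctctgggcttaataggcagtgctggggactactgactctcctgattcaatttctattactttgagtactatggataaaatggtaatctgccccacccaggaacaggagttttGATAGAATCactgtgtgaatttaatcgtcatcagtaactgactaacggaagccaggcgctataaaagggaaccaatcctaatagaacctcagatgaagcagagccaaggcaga
Zscan4f, chr7:11397665-11397914, plus strand: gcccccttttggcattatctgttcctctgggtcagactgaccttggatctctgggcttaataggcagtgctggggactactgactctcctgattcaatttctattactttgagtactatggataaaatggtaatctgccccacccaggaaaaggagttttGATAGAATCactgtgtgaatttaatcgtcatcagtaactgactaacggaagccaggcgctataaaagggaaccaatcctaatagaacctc
Zscan4d, chr7:11166149-11166398, minus strand: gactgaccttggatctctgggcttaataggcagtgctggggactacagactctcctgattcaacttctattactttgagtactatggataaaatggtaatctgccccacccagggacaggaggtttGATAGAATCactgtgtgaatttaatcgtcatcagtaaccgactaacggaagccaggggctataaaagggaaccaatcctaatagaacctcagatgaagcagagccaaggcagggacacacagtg
Gm4340, chr10:104193792-104194041, plus strand: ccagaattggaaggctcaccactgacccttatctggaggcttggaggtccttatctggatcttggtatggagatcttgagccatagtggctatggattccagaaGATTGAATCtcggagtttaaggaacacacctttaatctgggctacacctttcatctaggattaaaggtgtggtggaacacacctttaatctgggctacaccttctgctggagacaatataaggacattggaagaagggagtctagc
Rpia, chr6:70792176-70792425, minus strand: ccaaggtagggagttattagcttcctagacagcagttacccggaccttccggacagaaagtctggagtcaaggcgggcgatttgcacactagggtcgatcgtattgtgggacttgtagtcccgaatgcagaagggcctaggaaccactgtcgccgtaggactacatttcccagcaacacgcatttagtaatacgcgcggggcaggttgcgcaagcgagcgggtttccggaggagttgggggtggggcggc
The 3 Zscan4 windows hold the same letters, GATAGAATC, at 113, 90 and 124 bases before the start. Gm4340 has its match 146 bases before the start, and the Rpia window holds 0 matches. Over windows of 300 bases (250 before to 50 after the start), 4 Zscan4 genes were 77.5% to 95.7% identical to each other in pairs. Windows of the same length could be read for 281 of the 644 rises, 175 of the 246 falls and 9133 of the 14127 genes tested. The letters were in 23 of the 281 windows of rises (8.19%), in 1.71% of those of falls, in 1.37% of those of all genes tested and in 1.83% of all 27025 windows. Several of the 23 were neighbours in the same run (Gm8764, Gm21304, Gm21312, Gm20765 and Gm4340), and others were Zscan4b, Zscan4c, Zscan4d and Zscan4f. Such genes are not independent observations. No Usp17l, Tcstv or Tdpoz gene was among the 23, and windows could not be read for every rise. Outside runs of neighbouring rises, predicted genes and the 2-cell stage list, 2 of 196 windows of rises (1.02%) held them. Among other letters searched on both strands, the E-box CACGTG was in 7.47% of windows of rises and 12.2% of those of all genes tested, the E2F site GCGGGAA in 5.34% and 10.2%, and TATAAA in 16.0% and 8.39%. A match is a description of the sequence only. Windows of rises also held fewer CpG dinucleotides, with a median of 12 against 22 for all genes tested and 21 for falls; for the 196 rises outside the runs, predicted genes and the list the median was 19.

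Other families of the 2-cell embryo rose with Zscan4. All 5 tested Usp17l genes, which encode deubiquitinases, were higher, with a median of 1.77. Usp17le was at 4.44, 4.18, 5.23 and 4.95 FPKM in shGFP and at 24.0 and 20.3 in shHP1r (log2 2.02, SE 0.11, adjusted p = 0.000243). Usp17la, Usp17lb, Usp17lc and, named after its values were seen, Usp17ld changed by 1.79, 1.69, 1.77 and 1.72. The lowest knockdown value in the family was 8.33 FPKM and the highest control value was 5.23, so that the groups did not overlap for any of the 5.

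The 2 Tdpoz genes tested were nearly silent in control cells. Tdpoz3 was at 0.301, 0.213, 0.407 and 0.465 FPKM in shGFP and at 5.35 and 2.67 in shHP1r (log2 1.85, SE 0.21, adjusted p = 0.00361), and Tdpoz4 went from 0.140 to 0.553 FPKM to 5.23 and 1.64 (log2 1.63, adjusted p = 0.0357). At these levels the log2(FPKM + 1) scale understates the change, since the ratios of the means were 11.6 and 10.8. The 2 Tcstv genes varied more. Tcstv3 was at 2.59, 2.98, 5.59 and 5.76 FPKM in shGFP and at 21.3 and 11.7 in shHP1r (log2 1.74, SE 0.34, adjusted p = 0.0328), and Tcstv1 changed by 1.66 (adjusted p = 0.0198). Without shHP1r replicate 1 the adjusted p was 0.192 for Tcstv3 and 0.136 for Tcstv1; both were also lost without shGFP replicate 2, Tcstv3 without shGFP replicate 1, and Tdpoz4 without any single control (0.0706 to 0.0811). Neither Tdpoz gene reached the filter once a knockdown library was left out.

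Single genes of the list moved in the same direction. Zfp352, a zinc finger gene of the 2-cell embryo, was at 0.552, 0.720, 1.02 and 1.01 FPKM in shGFP and at 6.36 and 3.07 in shHP1r (log2 1.59, SE 0.24, adjusted p = 0.012). Sp110, named after its values were seen, was at 0.391 to 0.528 FPKM against 3.36 and 2.28 (log2 1.38, adjusted p = 0.00168). Tmem92 was at 9.47, 10.1, 9.45 and 9.14 FPKM against 41.8 and 29.8 (log2 1.79, adjusted p = 0.000567), and Arg2, which encodes the mitochondrial arginase, at 3.08, 2.90, 2.66 and 2.93 FPKM against 11.1 and 10.2 (log2 1.58, adjusted p = 0.000243). BC061212 changed by 2.29 and Pramef25 by 1.92, and of 5 Pramef genes tested 4 rose, with a median of 1.09. The 3 tested Duxbl genes, not all of which are in the list, encode double homeobox proteins. They rose by 0.85 to 0.91, from 1.07 to 1.44 FPKM in the 4 shGFP libraries to 2.45 to 4.06 in shHP1r. Dux itself, deposited as 4933403O03Rik (current symbol Duxf3, outside the list under the deposited name, and named after its values were seen), was at 0.966, 1.18, 1.49 and 1.31 FPKM in shGFP and at 5.05 and 2.61 in shHP1r (log2 1.07, SE 0.21, adjusted p = 0.0332). Its call was lost without shHP1r replicate 1 or without any single control (adjusted p 0.0696 to 0.104). The call of Duxbl2 was lost without shHP1r replicate 1 or shGFP replicate 1, 2 or 5 (0.0520 to 0.0757), and that of Duxbl3 without shGFP replicate 1, 5 or 6 (0.0502 to 0.0556).

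Many rising genes lay next to each other in the genome. RefSeq (GRCm38.p6) gave positions for 13231 of the 14127 genes tested, 461 of the 644 rises and 238 of the 246 falls. Runs of at least 3 called genes that changed in the same direction, each starting within 200 kb of the next, numbered 17 for rises, with 122 genes of which 98 were predicted, and 10 for falls, with 33 genes. The longest run of rises lay at chr7:14767725-15693361, where 24 of the 25 genes tested rose, all of them predicted genes, with a median of 2.03. On chromosome 12, 18 of 19 genes tested between 87514316 and 88329682 rose (median 2.07), BB287469 among them (11.9, 11.3, 10.9 and 10.5 FPKM in shGFP, 58.3 and 42.3 in shHP1r). All 12 genes tested at chr10:100306535-100397063 rose (median 1.72), as did all 5 Zscan4 genes at chr7:10900740-11402318, all 7 at chr10:104142987-104196522, which ends with Gm4340 (log2 2.04), and all 8 at chr4:73620615-73905921. The run at chr11:94755129-94887125 held Tmem92, with 7 of 7 genes tested. Neighbouring genes of a run may be copies that share sequence, which was not tested. Reads may then be divided among them, so the genes of a run are not taken as independent observations. Runs of falls were shorter, the longest having 4 genes, none of them predicted, and their medians ran from -0.63 to -0.42. Chromosomes 12, 7 and 10 had the highest shares of rises (7.43%, 5.92% and 5.88% of the genes tested there), and chromosomes 19 and 17 the highest shares of falls (4.78% and 3.76%).

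**Figure D3:**
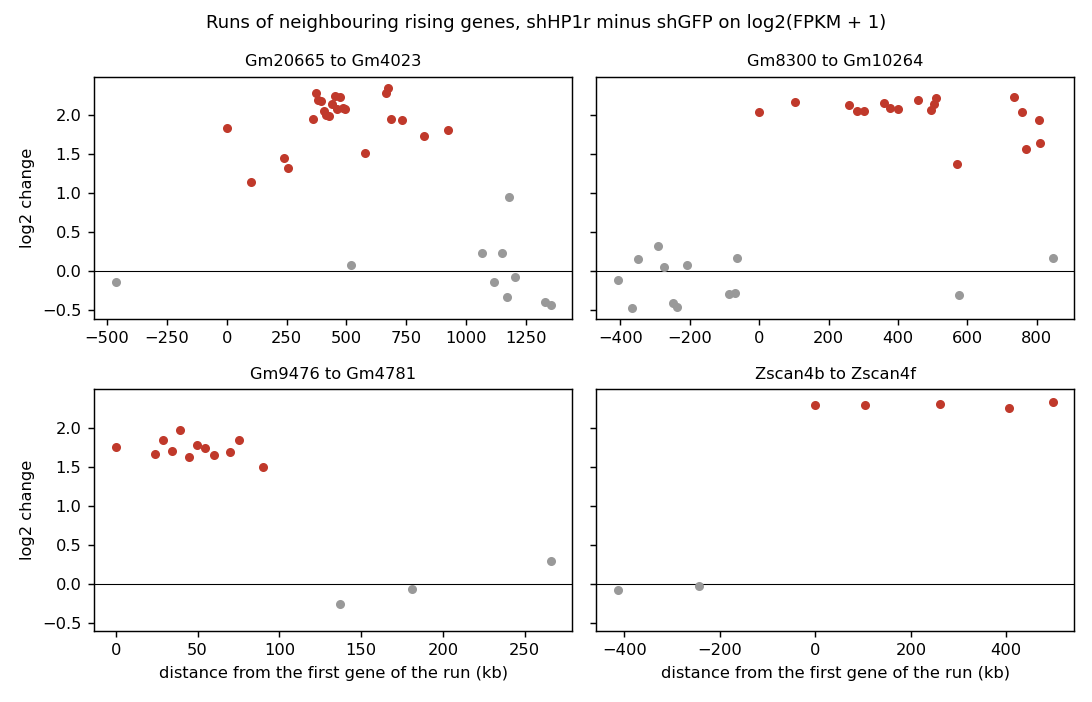
Change in shHP1r on log2(FPKM + 1) (y axis) of the genes tested in 4 runs of rising genes and on either side of them, against the distance in kb from the first gene of the run (x axis); called rises in red, genes not called in grey. The red points of the runs lie above 1, and 24 of 25, 18 of 19, 12 of 12 and 5 of 5 genes were called.

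Single germ cell genes, a group that PRC1.6 is known to hold silent, were higher. Of 47 germline and meiosis genes tested, 8 rose (17.0%, against 4.56% of all genes) and 0 fell, with a median of 0.19. Of the 8, 3 passed the filter only through the knockdown libraries. Among the rises were Tdrd7 and Tdrd5, tudor proteins of germ granules. Tdrd7 was at 0.894, 0.710, 0.600 and 0.646 FPKM in shGFP and at 2.23 and 1.69 in shHP1r (log2 0.79, SE 0.12, adjusted p = 0.013), and Tdrd5 changed by 0.55. Syce1, of the synaptonemal complex, was at 11.2, 9.96, 8.11 and 6.82 FPKM in shGFP and at 22.6 and 18.8 in shHP1r (log2 1.13, SE 0.19, adjusted p = 0.0172). Stra8, which starts meiosis, was at 20.4, 17.6, 15.4 and 13.8 FPKM against 27.9 and 30.4 (log2 0.77, adjusted p = 0.0327). Dazl, a germ cell RNA-binding protein, was at 18.7, 18.3, 14.9 and 14.4 FPKM against 26.4 and 41.0 (log2 0.96, adjusted p = 0.0348), and Hormad2, of the meiotic chromosome axis, changed by 0.56 (adjusted p = 0.033). For these genes the knockdown libraries lay above all 6 controls, but most calls depended on single libraries. The count was 1 without shGFP replicate 5, 2 without shGFP replicate 2 or shGFP replicate 6, and 4 without shGFP replicate 1. It was also lower without shHP1r replicate 1 and higher without shHP1r replicate 2, as was that of all genes. Tdrd7 and Tdrd5 fell under the filter once a knockdown library was left out. They were tested only without single controls, where Tdrd7 kept its call. The highest adjusted p was 0.134 for Syce1 (without shHP1r replicate 1), 0.132 for Stra8, 0.159 for Hormad2, 0.0975 for Dazl and 0.0859 for Tdrd5. Of the 14 PRC1.6 subunits tested and the 11 PRC2 subunits, 0 passed in limma. At an unadjusted p under 0.05, 1 subunit was higher and 3 lower for PRC1.6, and 0 were higher and 2 lower for PRC2. Of all 14127 genes tested, 1759 were higher and 2345 lower at that threshold.

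A few X-linked and imprinted genes rose. Of 14 X-linked cancer-testis and Rhox genes tested, 2 rose (14.3%, against 4.56% of all genes), Usp26 and Rhox13, with a median of 0.56 over the list. Of the 14, 5 passed the filter only through the knockdown libraries, Usp26 among them, as did 435 of all 14127 genes tested. Genes let in that way are high in shHP1r by selection, so nothing is read from that share or median. Usp26 was at 0.696, 0.869, 0.629 and 0.533 FPKM in shGFP and at 2.38 and 2.45 in shHP1r (log2 1.03, SE 0.11, adjusted p = 0.00246), and Rhox13 changed by 0.81 (adjusted p = 0.0248). Usp26 fell under the filter once a knockdown library was left out. Rhox13 was lost without shHP1r replicate 1, and without shGFP replicate 1, 5 or 6 (0.0592 to 0.0764). Without shHP1r replicate 2 the list held more rises, as did all genes tested. Of 40 imprinted genes 3 rose (7.5%, against 4.56% of all genes): H19, Igf2 and Magel2. The noncoding RNA H19 was at 2.59, 2.07, 2.80 and 1.63 FPKM in shGFP and at 10.8 and 11.5 in shHP1r (log2 1.91, SE 0.16, adjusted p = 0.000852), and its neighbour Igf2, which encodes a fetal growth factor, at 2.86, 2.43, 2.04 and 1.26 FPKM against 11 and 8.29 (log2 1.77, SE 0.22, adjusted p = 0.00488). shGFP replicates 3 and 4 had 4.10 and 3.97 FPKM of H19 and 4.83 and 4.43 of Igf2, higher than the other controls and below shHP1r. Magel2 changed by 0.93, and was lost without shGFP replicate 2, 5 or 6 (up to 0.0851), as Igf2 was without shHP1r replicate 1 (0.0676). Magel2 fell under the filter once a knockdown library was left out. Without shHP1r replicate 2, more imprinted genes rose, as did more of all genes.

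Of 13 histone variants and linker histones 2 rose (15.4%, against 4.56% of all genes). Hist1h1c, a linker histone, was at 1.72, 1.65, 1.22 and 1.04 FPKM in shGFP and at 6.27 and 3.56 in shHP1r (log2 1.27), and Hist1h2bc at 2.11, 1.80, 1.10 and 1.30 FPKM against 7.99 and 4.91 (log2 1.52). Without shHP1r replicate 1 their adjusted p was 0.0891 and 0.0765, and Hist1h1c was also lost without shGFP replicate 5 (0.0563). Of 22 interferon response genes 3 rose (13.6%, against 4.56% of all genes): Ifi27 (0.399 to 0.631 against 1.64 and 1.68 FPKM, log2 0.86), Oasl2 (0.428 to 0.648 against 1.64 and 1.79 FPKM, log2 0.82) and Parp14 (log2 0.61), the last lost without any single control (0.0524 to 0.0862). Each of the 3 reached 1 FPKM in the knockdown libraries only, and so fell under the filter once a knockdown library was left out. Of the 22 genes, 5 passed the filter only through the knockdown libraries, these 3 among them. Of all genes tested, 435 passed the filter only in that way, and 164 of those rose.

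**Figure D4:**
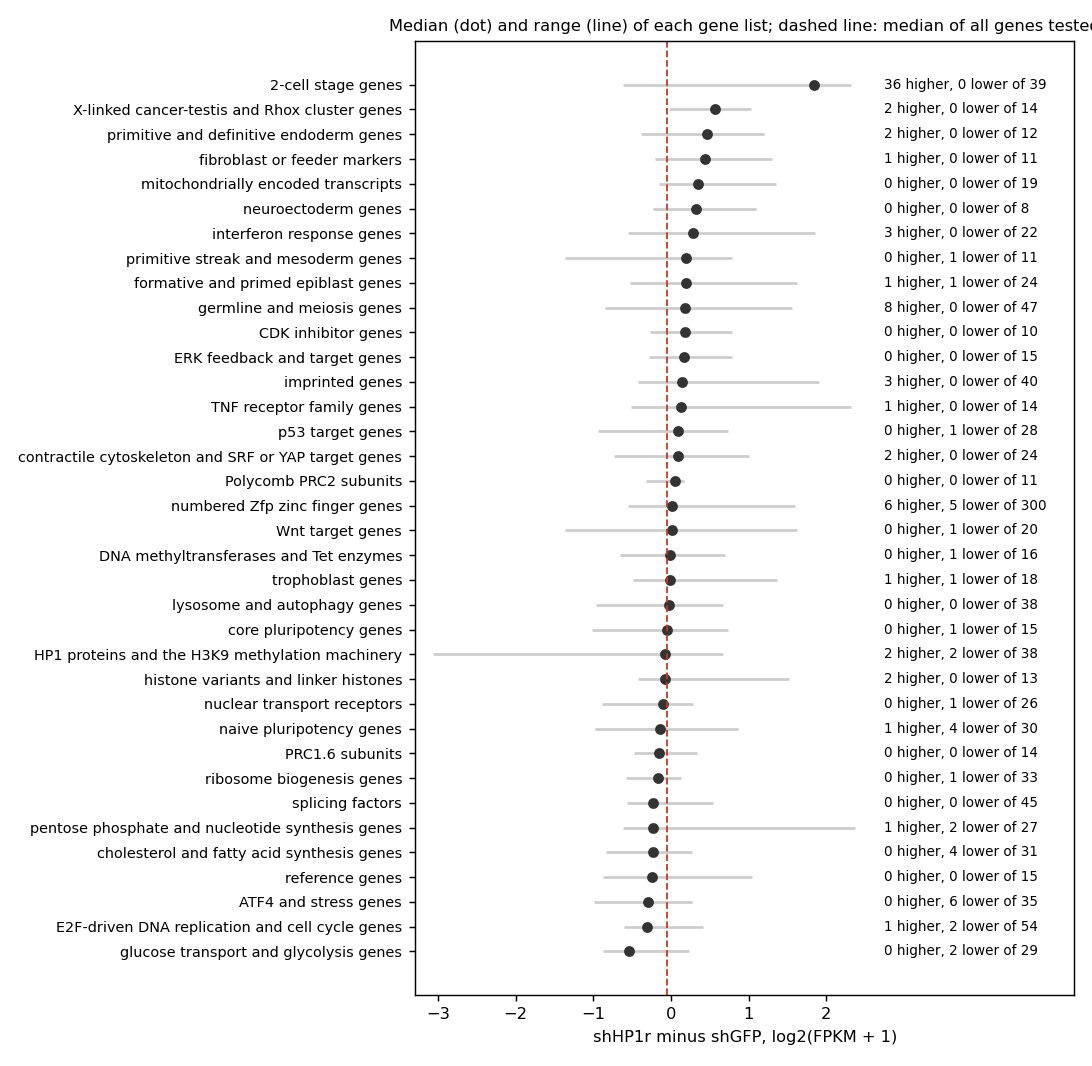
For each gene list with at least 8 members tested, the dot is the median change in shHP1r on log2(FPKM + 1) and the line runs from the lowest to the highest member; the dashed line is the median of all genes tested (-0.05), and the text gives the members called higher and lower. The 2-cell stage list lies at 1.85 and the next highest median, of the X-linked cancer-testis and Rhox list, is 0.56. In these lists 6 of 39 and 5 of 14 members passed the filter only through shHP1r.

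Markers of the naive state stayed expressed. Of 30 naive pluripotency genes 1 rose (3.33%, against 4.56% of all genes) and 4 fell (13.3%, against 1.74%), with a median of -0.14. Nanog was at 415, 439, 333 and 332 FPKM in shGFP and at 294 and 506 in shHP1r (log2 0.03, SE 0.23, adjusted p = 0.931), so that the knockdown libraries lay below and above all controls. Klf4 was at 30.9, 33.3, 24.4 and 24.4 FPKM in shGFP and at 7.73 and 24.8 in shHP1r (log2 -0.95, SE 0.39, adjusted p = 0.166), Esrrb at 101, 106, 89.5 and 90.4 against 58.7 and 103 (log2 -0.31, adjusted p = 0.363), and Tfcp2l1 at 73.1, 75.1, 69.0 and 72.1 against 29.0 and 57.4 (log2 -0.81, adjusted p = 0.0909). In each of these the low value was that of shHP1r replicate 1. With shHP1r replicate 2 left out, Klf4, Esrrb and Tfcp2l1 were called lower (log2 -1.73, -0.71 and -1.29). More genes of the list were then called lower, as were more of all genes. The core factors Pou5f1 (267, 276, 336 and 328 FPKM in shGFP, 225 and 219 in shHP1r, adjusted p = 0.0857) and Sox2 (124, 123, 107 and 106 against 95.8 and 125, adjusted p = 0.755) did not pass.

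The naive gene that rose was Fbxo15, an F-box gene of ES cells, at 174, 181, 159 and 160 FPKM in shGFP and 283 and 335 in shHP1r (log2 0.87, SE 0.11, adjusted p = 0.00471). Those that fell were Tcl1, a coactivator of AKT (20.7, 23.3, 23.5 and 25.1 against 9.30 and 13.5 FPKM, log2 -0.98, adjusted p = 0.0119), Pecam1, an adhesion molecule of naive cells (15.6 to 16.0 against 9.10 and 11.2 FPKM, log2 -0.60), Mybl2, a cell cycle transcription factor (119 to 127 against 72.0 and 89.9 FPKM, log2 -0.61), and Trim8 (18.8 to 21.6 against 13.2 and 14.7 FPKM, log2 -0.50). shGFP replicates 3 and 4 were at 13 and 14.4 FPKM of Tcl1, which overlaps the knockdown, and at 11.3 and 11.4 of Pecam1, just above it. Tcl1 and Fbxo15 kept their calls without any single library. Pecam1 was lost without shGFP replicate 5 (0.0524), Trim8 without shHP1r replicate 1 or shGFP replicate 2, 5 or 6 (0.0625 to 0.120), and Mybl2 without any 1 library other than shHP1r replicate 2 (0.0501 to 0.0772). With shGFP replicates 3 and 4 added, 0 of the 30 passed in either direction.

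Among lists of other lineages, few genes passed. Over all genes tested, 4.56% rose and 1.74% fell. The formative or primed epiblast list had 24 genes tested, of which Krt18 rose and Tead2 fell, with a median of 0.19. Krt18, a keratin of simple epithelia that is also in the trophoblast list, was at 4.92, 4.82, 4.47 and 3.10 FPKM in shGFP and at 11.1 and 7.37 in shHP1r (log2 0.93, adjusted p = 0.0443), and Tead2, a partner of YAP, at 29.2 to 33.3 against 19.6 and 22.7 FPKM (log2 -0.53, adjusted p = 0.0263). Both calls were lost without any 1 library other than shHP1r replicate 2 (up to 0.213 and 0.121). Of 12 primitive and definitive endoderm genes 2 rose (16.7%): Dab2, an endocytic adaptor (0.361 to 0.721 against 1.83 and 1.54 FPKM, log2 0.82), and Lamb1, a laminin chain (5.88 to 6.62 against 15.8 and 9.77 FPKM, log2 0.88). Dab2 fell under the filter once a knockdown library was left out and was lost without shGFP replicate 5 (0.0556), and Lamb1 was lost without any single control (0.0650 to 0.0867). Of 11 fibroblast or feeder markers, Thy1 rose (0.571 to 1.37 against 4.59 and 2.97 FPKM, log2 1.31) and was lost without shHP1r replicate 1 (0.132) or shGFP replicate 5 (0.0522). The fixed fibroblast or feeder markers summed to 1.71 to 3.48 FPKM in the 4 shGFP libraries and to 9.18 and 5.41 in shHP1r, with 3 of the 9 tested, and their part in these results was not tested. The primitive endoderm markers, 2 of 7 tested, summed to 2.21 to 3.66 and to 6.24 and 4.18 FPKM, and the trophoblast markers, 2 of 6 tested, to 31.9 to 35.3 and to 22.4 and 32.3. Of the 5 fibroblast or feeder markers listed in the table, Col1a1 and Col1a2 reached at most 0.358 and 0.247 FPKM over the 6 shGFP and 2 shHP1r libraries, and Thy1, Twist1 and Fbn1 4.59, 2.05 and 1.93, each in shHP1r replicate 1. The fitted changes of Twist1 (0.40) and Fbn1 (0.63) did not pass. The 5 primitive endoderm markers listed reached at most 2.42 FPKM (Gata4), 1.83 (Dab2), 1.43 (Pdgfra), 0.452 (Gata6) and 0.227 (Sox7). The 6 trophoblast markers reached at most 32.8 FPKM (Tfap2c), 1.87 (Gata3), 0.99 (Cdx2), 0.729 (Hand1), 0.392 (Krt7) and 0.18 (Elf5). Of 24 contractile cytoskeleton and SRF or YAP target genes 2 rose, Cyr61 (4.43 to 6.20 against 10.3 and 9.06 FPKM) and Anxa1 (0.931 to 1.19 against 2.07 and 1.87 FPKM), the first lost without shHP1r replicate 1 or shGFP replicate 5 (up to 0.138) and the second without any 1 library other than shHP1r replicate 2 (0.0694 to 0.124). Without shHP1r replicate 2, more genes of that list and of the fibroblast or feeder list rose, as did more of all genes.

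The largest falls after Cbx3 depended on which control libraries were used. A first group lay below all 6 shGFP libraries. Slc7a1, a transporter of arginine and lysine, was at 11.5, 12.4, 12.8 and 13.6 FPKM in shGFP replicates 1, 2, 5 and 6, at 11.9 and 11.6 in replicates 3 and 4, and at 4.78 and 7.00 in shHP1r (log2 -1.0, SE 0.14, adjusted p = 0.00864). Tnpo1, which encodes the nuclear import receptor transportin 1, was at 49.3, 48.2, 50.9 and 51.8 FPKM, at 47.9 and 50.3, and at 23.4 and 29.9 (log2 -0.89, SE 0.11, adjusted p = 0.00437). Both fell in every fit with 1 library left out. Tnpo1 was the single gene of 26 nuclear transport receptors that passed (3.85% lower, against 1.74% of all genes). Ubald2 was at 41.1 to 53.5 FPKM in the 6 controls against 22.2 and 26.9 in shHP1r (log2 -0.95, adjusted p = 0.00941) and Polr3g, an RNA polymerase III subunit of stem cells, at 16.1 to 23.4 against 6.25 and 11.4 (log2 -0.93, adjusted p = 0.0409). Ubald2 was lost without shHP1r replicate 1 (0.0828), and Polr3g without any single control (0.0810 to 0.109).

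In a second group shGFP replicates 3 and 4 lay at or near the knockdown level. Cdx1, a caudal homeobox gene of the Wnt pathway's targets, was at 19.9, 22.0, 27.0 and 27.8 FPKM in shGFP replicates 1, 2, 5 and 6 and at 7.88 and 9.59 in shHP1r (log2 -1.36, SE 0.16, adjusted p = 0.00348), but at 8.11 and 8.81 in shGFP replicates 3 and 4, between the knockdown libraries. Cpt1a, which commits fatty acids to mitochondrial oxidation upstream of Slc25a20, was at 24.1, 25.2, 23.8 and 24.5 FPKM, at 12.8 and 13.4, and at 7.41 and 15.9 in the same order of groups (log2 -1.09, SE 0.25, adjusted p = 0.0495). Hap1 was at 23.5 to 25.3, at 11.5 and 11.6, and at 9.45 and 16.2 FPKM. Gdf15, a stress-induced cytokine, was at 2.97 to 3.67, at 1.02 and 0.852, and at 1.04 and 1.54 FPKM (log2 -0.94, adjusted p = 0.00661), and Laptm5, a lysosomal membrane protein, at 20.1 to 23.8, at 11.7 and 11.6, and at 13.4 and 9.18 FPKM. Pycard, an inflammasome adaptor, was at 8.34 to 13.8, at 5.2 and 4.53, and at 5.02 and 5.22 FPKM. In these genes the controls with the high mitochondrial share overlapped the knockdown, and whether that share has a part in the calls was not tested. Tdh, the threonine dehydrogenase of mouse ES cells, was at 87.4, 90.4, 118 and 123 FPKM, at 62.1 and 65.7, and at 49.5 and 52.1, and Bdh1, an enzyme of ketone bodies, at 6.46 to 9.15, at 5.00 and 5.18, and at 2.56 and 4.34 FPKM, both below all controls. Capn5, a protease, was at 8.11 to 9.69, at 5.96 and 6.91, and at 3.22 and 5.36 FPKM. Only Gdf15 of this group kept its call without any single library. Cdx1 was lost without shHP1r replicate 1 (0.0505), as was Tdh (0.119), and Laptm5 without shGFP replicate 5 (0.0508), while Cpt1a and Hap1 were lost without any single control (up to 0.120 and 0.0907), Capn5 without shHP1r replicate 1 or shGFP replicate 2, 5 or 6 (up to 0.0705), Bdh1 without any 1 library other than shHP1r replicate 2 (up to 0.179), and Pycard without any 1 library other than shGFP replicate 1 (up to 0.207).

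**Figure D5:**
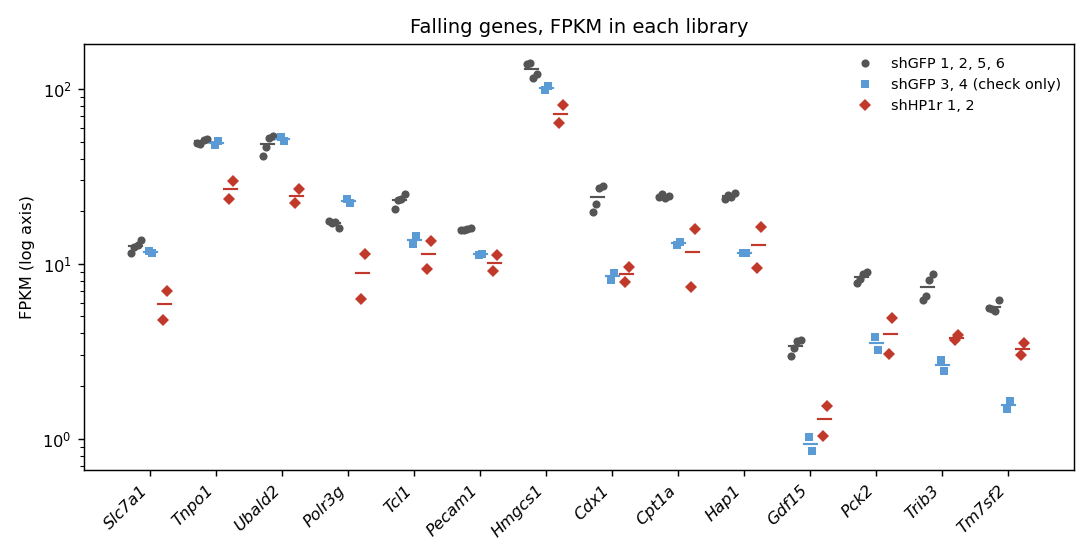
FPKM (log axis) of falling genes in each library, with a bar at each group mean; shGFP replicates 1, 2, 5 and 6 in grey, shGFP replicates 3 and 4 in blue and shHP1r in red. For Slc7a1, Tnpo1, Ubald2, Polr3g, Pecam1 and Hmgcs1 the blue points lie above both red points, and for Cdx1, Hap1, Gdf15 and Pck2 they overlap or lie below them.

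Metabolic lists held falls and few rises. Over all genes tested, 1.74% fell and 4.56% rose. Of 35 ATF4 and stress genes, which supply amino acids and respond to their shortage, 6 fell (17.1%) and 0 rose, with a median of -0.30. Besides Slc7a1 they were Chac1, which degrades glutathione (2.60 to 2.99 FPKM in shGFP, 1.40 and 1.43 in shHP1r, log2 -0.63, adjusted p = 0.009), Pck2, the mitochondrial PEP carboxykinase (7.76 to 8.97 against 3.05 and 4.88 FPKM, log2 -0.95), Trib3, a pseudokinase (6.17 to 8.76 against 3.65 and 3.90 FPKM, log2 -0.80), and the serine pathway enzymes Shmt2 (70.8 to 80.6 against 52.4 and 51.9 FPKM, log2 -0.53) and Psat1 (51.0 to 53.5 against 40.8 and 40.6 FPKM, log2 -0.35). shGFP replicates 3 and 4 were at 3.79 and 3.22 FPKM of Pck2 and at 2.83 and 2.44 of Trib3, at or below the knockdown. The count was 2 without shGFP replicate 5, and 1 with shGFP replicates 3 and 4 added. It was higher without shHP1r replicate 2, as was the count of falls over all genes. The calls of Pck2 (0.0522), Trib3 (0.0688), Shmt2 and Psat1 were lost without shGFP replicate 5, those of Trib3, Shmt2 and Psat1 also without shHP1r replicate 1 (0.135, 0.0828 and 0.105), those of Shmt2 and Psat1 without shGFP replicate 2 or 6, and that of Psat1 without shGFP replicate 1.

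Of 31 genes of cholesterol and fatty acid synthesis 4 fell (12.9%, against 1.74% of all genes) and 0 rose, with a median of -0.24. They were Hmgcs1 (116 to 140 against 63.6 and 80.6 FPKM, log2 -0.84, adjusted p = 0.0146), Tm7sf2 (5.35 to 6.23 against 2.99 and 3.54 FPKM, log2 -0.64), Stard4 (11 to 11.9 against 8.49 and 8.07 FPKM, log2 -0.42) and Acly (133 to 145 against 81.0 and 108 FPKM, log2 -0.56). shGFP replicates 3 and 4 were below both knockdown libraries for Tm7sf2 (1.48 and 1.65 FPKM) and Stard4 (6.24 and 6.94), and above them for Hmgcs1 (98.5 and 104). None of the 4 passed without shHP1r replicate 1. Hmgcs1 and Tm7sf2 passed without any 1 of the controls, and Stard4 and Acly in none of these fits. Without shHP1r replicate 2 more genes of the list fell, as did more of all genes. With shGFP replicates 3 and 4 added, 0 genes of the list passed. Of 29 glucose transport and glycolysis genes 2 fell (6.90%) and 0 rose, with a median of -0.55. The summed FPKM of the list was 2499, 2495, 3975 and 3777 in shGFP replicates 1, 2, 5 and 6, 1954 and 2016 in replicates 3 and 4, and 1795 and 2503 in shHP1r, so that shHP1r replicate 2 lay within the range of the 4 controls. The genes that fell were Pfkm (14.4 to 15.3 against 8.98 and 10.8 FPKM, log2 -0.55) and Hk1 (8.4 to 11.7 against 4.53 and 6.31 FPKM, log2 -0.78), which catalyse early steps. Neither passed without shHP1r replicate 1 or without shGFP replicate 2, 5 or 6 (up to 0.0684 and 0.213), and Hk1 also failed without shGFP replicate 1. Without shHP1r replicate 2, more genes of the list fell, as did more of all genes. For both genes the values in shGFP replicates 3 and 4 overlapped or lay near the knockdown (8.55 and 9.40 FPKM of Pfkm, 6.5 and 5.98 of Hk1).

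Of 54 E2F-driven DNA replication and cell cycle genes, 2 fell, Pola2 (34.1 to 38.9 against 21.4 and 26.9 FPKM, log2 -0.57) and Rfc5 (23.8 to 27.4 against 18.6 and 19.6 FPKM, log2 -0.41), and 1 rose, Ccne2 (5.94 to 6.84 against 9.24 and 8.72 FPKM, log2 0.41, with 11.9 and 11.6 in shGFP replicates 3 and 4). The shares were 3.70% lower and 1.85% higher, against 1.74% and 4.56% of all genes, and the median of the list was -0.30. At an unadjusted p under 0.05 in limma, 29 of the 54 genes were lower and 1 higher. The fitted change was negative for 50 of the 54, and for 8195 of all 14127 genes tested. None of the 3 passed without shHP1r replicate 1 or without any single control. Without shHP1r replicate 2 more genes of the list fell, as did more of all genes. Of 45 splicing factors 0 passed in limma, with 21 lower and 0 higher at an unadjusted p under 0.05 and a median of -0.23, and of 15 reference genes 0 passed, with 4 lower and 1 higher and a median of -0.24. The CDK inhibitors (10 tested), lysosome and autophagy genes (38) and ERK feedback and target genes (15) also had 0 calls, with 3, 10 and 4 genes under 0.05 before adjustment. Of all 14127 genes tested, 2345 were lower and 1759 higher at that threshold in limma. Without shHP1r replicate 2 the splicing, reference, CDK inhibitor, lysosome and ERK lists gained calls, as did all genes tested. Of 28 p53 targets Gdf15 alone passed, and without shHP1r replicate 2 more of them rose, as did more of all genes.

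The cells with a hairpin against β-catenin allowed a direct test between the 2 knockdowns, with the shGFP libraries adding only to the estimate of the spread. Of the 644 genes that rose in shHP1r, 579 were higher in shHP1r than in shBcat and 3 lower, and over all genes tested in that contrast 13.1% were higher and 7.33% lower. Of the 246 falls, 113 were lower than in shBcat and 16 higher. Both sets were chosen on the same 2 shHP1r libraries that enter this contrast, so these counts, and that of the 2-cell stage list, are a description from which nothing is read. For the 2-cell stage list 37 of 39 genes were higher in shHP1r, by a median of 3.55, and its share of all FPKM was 0.0358% and 0.0359% in shBcat. Zscan4c, for example, stood at 2.98 and 2.56 FPKM in shBcat, 27.7 to 32.6 in the 4 shGFP libraries and 160 and 141 in shHP1r, and Rpia at 4.21 and 4.12, 16.5 to 17.7, and 109 and 78.4 FPKM. Stra8 stood at 1.73 and 1.76 FPKM in shBcat, below its 13.8 to 20.4 in shGFP, and differed from shHP1r by 3.46 (SE 0.16, adjusted p = 5.35e-06). H19 (11.4 and 10.0 FPKM in shBcat, difference 0.06, SE 0.17, adjusted p = 0.842) and Igf2 (6.86 and 7.04 FPKM, difference 0.41, SE 0.24, adjusted p = 0.255) did not differ past the test between the knockdowns. The 3 Duxbl genes did not differ past it either (difference 0.26 to 0.39, adjusted p 0.13 to 0.25). In shBcat these 3 genes were 0.516 to 0.598 above the 4 shGFP libraries on the log2 scale, a change for which no test is given here. For Cdx1 the shBcat libraries were at 0.102 and 0.112 FPKM, 3.13 below shHP1r (SE 0.17, adjusted p = 1.11e-05).

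EpiLC served to place the genes along the exit from the naive state, in libraries and a table separate from the hairpin experiment. There, 76.2% of 16169 genes tested passed between 2i and 48 h of epiLC, so that a change of at least 2-fold was also asked for; 12.3% of the genes tested then rose and 8.52% fell. Among the 12622 genes tested in both comparisons, 8.78% rose and 8.42% fell. Of the 390 genes that rose in shHP1r and were tested there, 16.9% rose and 19.7% fell in epiLC, and of the 234 falls 2.99% rose and 28.2% fell. Genes that were lower in shHP1r and at 48 h of epiLC included Tdh (log2 -4.14 in epiLC), Pecam1 (-3.85), Tcl1 (-3.86) and Cpt1a (-2.74). Of the rising genes, Zscan4c was lower in epiLC (-1.42) and Dazl too (-2.66), whereas H19 (2.78) and Igf2 (3.37) were higher. These epiLC changes are differences on the log2(TPM + 1) scale.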

How the data were processed

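Values came from 2 tables. The authors deposited FPKM values for 12 hairpin libraries in 2i. Per the submitters' processing notes, the tools for these were TopHat2 2.0.13 and Cufflinks 2.2.1, besides Bowtie2 and bcl2fastq 2.18, and the build was mm10. The authors deposited TPM values for V6.5 cells in 2i and as epiLC, and the notes name STAR, RSEM and Bowtie2, whose versions are not given in the sources used here. The notes give tools without their role or order. The FPKM table held 0 values at 0. For shHP1r replicate 2, 1 further column under the usual library name held values below 0, which FPKM cannot take, and was not used. The values of that replicate came from a column labelled as FPKM, named in another style than those of the other libraries. What the unused column holds is not known. Read depth is unknown, so no counting error is given.

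Values were taken as log2(value + 1), with genes at 1 or more in at least 2 libraries, and tested with limma 3.58.1 in R 4.3.3 with a variance trend and robust moderation (statmod 1.5.0). P-values are two-sided and adjusted by the Benjamini-Hochberg method over all genes tested, and a gene was called at an adjusted p under 0.05. The test was tried on simulated data. Samples were grouped by their titles. Named genes were Cbx3, Cbx1 and Cbx5, up to 15 largest rises and 15 largest falls without overlap between groups and with a group mean of at least 2 FPKM (predicted genes, pseudogenes, ribosomal protein and small RNA genes left out), up to 6 members of each of 37 lists by smallest p, members of runs, and the cell type markers. Members and lists were chosen with earlier results of these data known. Gene positions and promoter sequences came from RefSeq (GRCm38.p6, the same build as mm10), matched by gene ID or symbol. Alternatives were other control libraries, pseudocounts, filters, scalings and moderation, a minimum fold, averaged pairs, a replicate block and leaving out each library.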

Additional observations from a re-analysis of the deposited data

Results flagged for a closer look

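In 1 of 103 named genes, a single control library lay far from the other 3 of its group. Ifi27, an interferon-induced gene, was at 0.631 FPKM in shGFP replicate 6 and at 0.406, 0.399 and 0.438 in replicates 1, 2 and 5, a gap of 0.832 of the range of the group and just past the 95% critical value of Dixon's test. Chance alone marks about 1 in 20 groups. Both shHP1r libraries (1.64 and 1.68 FPKM) lay above this value, and the call of Ifi27 held without shGFP replicate 6.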

How the results depend on the processing

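The number of called genes depended on the control libraries, the filter and single libraries, whereas Cbx3 was lower in every alternative run. Against the 890 calls (644 higher, 246 lower), adding shGFP replicates 3 and 4 gave 557 (42 lower). Using those 2 alone gave 6002 (4518 higher, 1484 lower), replicates 1 and 2 alone 214 (201 higher, 13 lower), and replicates 5 and 6 alone 2091 (1198 lower). A minimum of 5 FPKM gave 491 (319 higher), median-of-ratios scaling 159 falls beside 726 rises, and a minimum of 2-fold 352 (339 higher, 13 lower). That scaling moved the median of all genes from -0.05 to -0.00. Libraries averaged in pairs gave 0 calls (0 higher, 0 lower), with Cbx3 at -3.02 and an adjusted p of 0.103 by limma. Leaving out 1 library gave 363 to 2869 calls, 284 to 1373 higher and 34 to 1496 lower, and Cbx3 stayed between -3.12 and -3.0. Of 95 called genes named here, 34 kept the call in all 6 fits without 1 library, 55 lost it in at least 1 such fit, and 6 (Ifi27, Oasl2, Sp110, Tdpoz3, Tdrd7 and Usp26) kept it without any single control but fell under the filter once a knockdown library was left out.

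The replicate block could use only replicates 1 and 2 of both groups. It gave 314 calls (298 higher, 16 lower), against 214 in the same 4 libraries without it. Deviations of same-numbered libraries correlated at 0.0849, so the numbers were not taken as pairs. Between the knockdowns, where the main count was 2913, the block gave 932, the 4 knockdown libraries alone 1319, a minimum of 5 FPKM 1770 and leaving out 1 library 984 to 4404. EpiLC counts, 12322 in the main test, were 12143 with the block and 10116 to 10763 with 1 library left out.

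Some named genes changed sign, and the cause was not tested. Against shGFP replicates 3 and 4 only, the log2 change was 0.34 for Klf4, 0.10 for Hap1, 0.15 for Acly, 0.29 for Esrrb, 0.29 for Stard4, 0.74 for Pou5f1, 0.037 for Cdx1, 0.73 for Tm7sf2, -0.35 for Ccne2, 0.064 for Pycard, 0.40 for Trib3, 0.12 for Pfkm, 0.23 for Gdf15, 0.12 for Pck2 and 0.65 for Sox2. Sox2, near 0 in the main test, was also at 0.17 with these 2 libraries added or with all 12 libraries, at 0.039 against replicates 5 and 6 and at 0.19 with averaged pairs, and ran from -0.26 to 0.12 with 1 library left out. Nanog was at -0.15 against replicates 1 and 2 and with the replicate block, and ran from -0.36 to 0.42 with 1 library left out. Cbx1 ran from -0.22 to 0.31 and Esrrb from -0.71 to 0.093 in those fits.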
